A study of Ovis aries with 6 samples.

Results

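Carbonic anhydrases are zinc enzymes that interconvert carbon dioxide and bicarbonate, releasing or taking up a proton. In muscle they help move carbon dioxide and protons from the fibres to the blood. CA3 is known as an abundant but slow cytosolic form of slow fibres and fat cells, and CA2 as a fast cytosolic form. CA4, CA9, CA12 and CA14 act at membranes, CA4 on a lipid anchor and known on capillaries, the others with a membrane-spanning segment. CA5B belongs to mitochondria and CA13 to the cytosol, and CA8 and CA11 are related proteins without the enzyme activity. The 10 genes CA2, CA3, CA4, CA5B, CA8, CA9, CA11, CA12, CA13 and CA14 were selected by their gene symbols from the 23144 genes of the count table.

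The muscle was the longissimus dorsi of females aged 1 year, from 3 sheep of the breed Qianhua Mutton Merino (QHMM) and 3 of the breed Small Tail Han (STH), kept under 1 regime for both breeds, with 1 library per animal. The paper reports live weight of the slaughtered sheep as taken after a fast, before slaughter. Poly(A) RNA was read on an Ion Proton instrument, and the authors deposited read counts per gene beside RPKM values, which divide a count by gene length and library total. Between 10982191 and 14334544 reads were counted on genes in each library. All genes were tested together with edgeR's quasi-likelihood F test on TMM-normalized counts, and a gene was called at an FDR below 0.05 a fold change of more than 1.5 either way; log2 fold changes are those of STH vs. QHMM. The members were listed when breed values of these data were known, so the FDRs below, taken over all 12506 tested genes, describe the members and are not independent evidence for them. Muscle markers were present in all libraries, with a summed RPKM of the fast-fibre list of 49630 or more. On the second principal component, the libraries of QHMM replicate 2 and STH replicate 3 were separated from the rest. In whole muscle, fewer cells of a type and less RNA per cell cannot be told apart.

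In STH muscle, CA2 and CA3 were down-regulated by more than 3-fold and CA12 was up-regulated 14.2-fold, as ratios of mean normalized counts. CA4 was higher and CA14 lower in all 3 STH libraries, but neither was past the threshold. Of the 10 genes, 7 passed edgeR's filter for low counts and 3 of these were called, 1 up-regulated and 2 down-regulated. Over all tested genes 3.45% were called, 1.62% up-regulated and 1.83% down-regulated. The normalized counts of the breeds did not overlap in 5 of the 7, against 24.7% of all tested genes. CA12 was close to the filter in QHMM and passed it with its STH counts, and CA8, CA9 and CA13 did not pass it. The 3 calls were made in each of the 6 fits that left out 1 library. In a fit chosen after the data were seen, without QHMM replicate 2 and STH replicate 3 together, 11 of 12728 genes were called, and none of the members was. There the log2 fold change was -2.01 for CA2 (FDR = 0.0604), -1.61 for CA3 (FDR = 0.0942) and 3.87 for CA12 (FDR = 0.0604), beside -1.82, -1.77 and 3.81 with all libraries.

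By RPKM, which allows levels of different genes to be compared, the family was led by CA3 in every library. CA3 reached 2103, 2816 and 2222 RPKM in the QHMM animals, given by replicate number here and below, against 644, 951 and 695 in STH, and its mean was the 46th highest of all genes. It made up 95% ± 0.417 of the summed RPKM of the 10 genes in QHMM (mean ± SD, n = 3) and 90.0% ± 3.02 in STH (n = 3). CA14 followed in both breeds, with a mean of 68.4 ± 21.0 RPKM in QHMM and 35.0 ± 10.9 in STH. In QHMM the third gene was CA2 at 41.4 ± 7.62 RPKM and the fourth CA4 at 11.1 ± 3.08, and the ranges of these first 4 genes did not overlap. In STH the order of CA2 and CA4 was the other way round, with CA4 at 23.2 ± 3.90 RPKM and CA2 at 12.5 ± 1.64. There the ranges of CA14 and CA4 overlapped, as did those of CA2 and CA12. CA11 and CA5B lay lower, at 1.79 ± 1.09 and 0.577 ± 0.216 RPKM in QHMM and 0.747 ± 0.198 and 0.734 ± 0.410 in STH. Neither CA11 and CA12 nor CA12 and CA5B were separated by their ranges in QHMM, and CA11 and CA5B overlapped in STH.

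**Figure D1:**
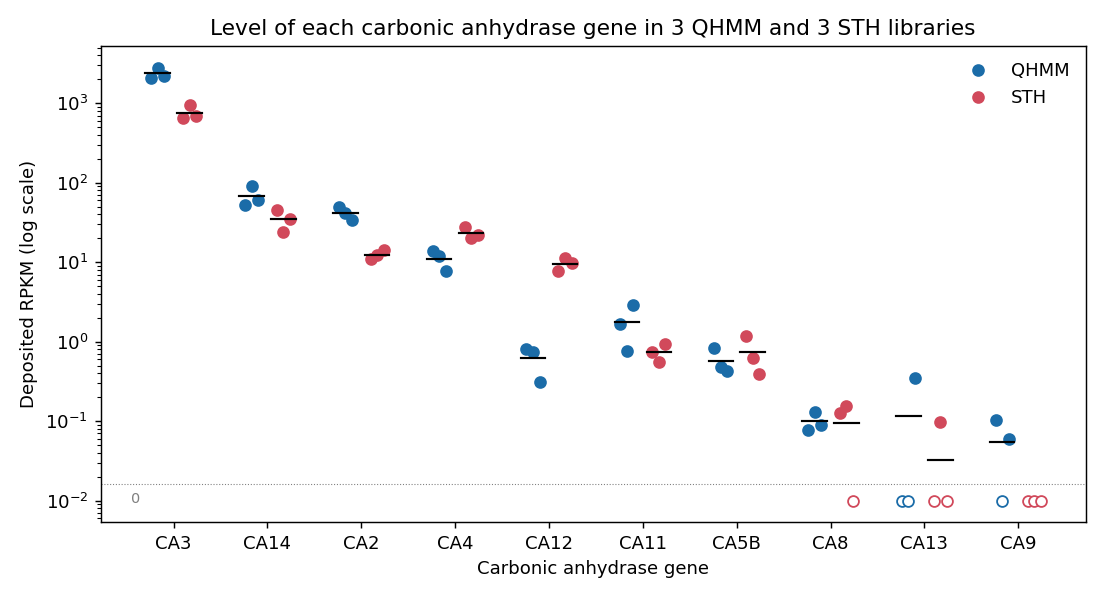
Deposited RPKM (log scale) of the 10 carbonic anhydrase genes, with 1 point per library, QHMM in blue and STH in red, and a black bar at the mean of 3. Open points under the dotted line are values of 0. CA3 lies above all other members in each library, and CA12 rises from under 1 RPKM in QHMM to between 7.76 and 11.4 in STH.

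CA3, the most abundant member, had normalized counts of 44569, 70849 and 46249 in QHMM, compared with 11538, 18470 and 17463 in STH. Every QHMM library was above every STH library, and QHMM replicate 2 was the highest of all. The mean fell from 53889 ± 14712 in QHMM (SD, n = 3) to 15824 ± 3745 in STH (n = 3), which was 3.41-fold lower (log2 fold change -1.77, SE 0.31, FDR = 0.0160, edgeR). Reads on CA3 were 0.351% to 0.470% of all counted reads in QHMM but 0.107% to 0.159% in STH. The 95% Wilson intervals of these shares run from 0.348% at the lowest to 0.474% at the highest in QHMM. In STH they run from 0.106% to 0.161%. Each interval is for read counting within a library and leaves out differences between animals. PCR copies are not independent molecules, so the intervals can be too narrow even for counting error.

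CA2, the fast cytosolic enzyme, had 1042, 1046 and 705 normalized counts in QHMM and 196, 240 and 357 in STH. The breeds were again apart, with the lowest QHMM animal well above the highest STH animal. The mean was 3.53-fold lower in STH, 264 ± 83.3 (SD, n = 3) against 931 ± 196 in QHMM (n = 3) (log2 fold change -1.82, SE 0.28, FDR = 0.0109, edgeR). The log2 ratio of CA3 to CA2 counts was 5.42, 6.08 and 6.03 in QHMM and 5.88, 6.27 and 5.61 in STH, so the breeds overlapped in the ratio although not in either gene.

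CA2 and CA3 are paralogs. In the RefSeq gene table of ARS-UI_Ramb_v3.0, an assembly other than the Oar_v3.1 used for the files, they are direct neighbours among protein-coding genes, and CA1 and CA13 stand on the same side of them. These nearest relatives were nearly silent in the same libraries, with 2 reads on CA1 and 5 on CA13 in all 6 libraries together, where CA3 had 204453. PSKH2 and ATP6V0D2, on the other side of CA2, had 0 reads. E2F5, the next tested gene past CA13, had a log2 fold change of 0.26 (FDR = 0.744), and these neighbours were named after their values were seen. Symbols of 9 of the 10 members were found in that table, and CA5B was not. Only uniquely placed reads were counted, but how reads shared by paralogs would have been divided was not tested.

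CA12, a transmembrane enzyme with its active part outside the cell, had 10.6, 11.6 and 4.03 normalized counts in QHMM and 86.0, 137 and 151 in STH. The raw counts were 12, 10 and 4 reads in QHMM and 105, 129 and 136 in STH, so all QHMM libraries held more reads than the floor of 3 and every STH library was far above them. The log2 fold change was 3.81 (SE 0.42, FDR = 0.00321, edgeR), and it lay between 3.48 and 4.04 when 1 library was left out. On the log2(RPKM + 1) scale, which shrinks changes of low genes, limma-trend gave 2.71. With at least 10 counts required in every library CA12 was not tested.

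CA4, the lipid-anchored form, had 186, 192 and 103 normalized counts in QHMM and 315, 248 and 355 in STH. All STH libraries were above all QHMM libraries, and QHMM replicate 3 was the lowest. The log2 fold change of 0.93 (SE 0.28, 95% interval 0.31 to 1.56) had an FDR of 0.101 with edgeR and was called only by DESeq2 among the alternatives, with an FDR of 0.0492. CA14, a transmembrane form, had 1519, 3139 and 1684 normalized counts in QHMM and 1111, 633 and 1194 in STH. Here all QHMM libraries were the higher ones, and QHMM replicate 2 stood above the rest. The log2 fold change was -1.11 (SE 0.34, 95% interval -1.85 to -0.37, FDR = 0.101, edgeR), and it was -0.71 without QHMM replicate 2. DESeq2 and the fit without a filter on low counts called CA14, with FDRs of 0.0159 and 0.0411.

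**Figure D2:**
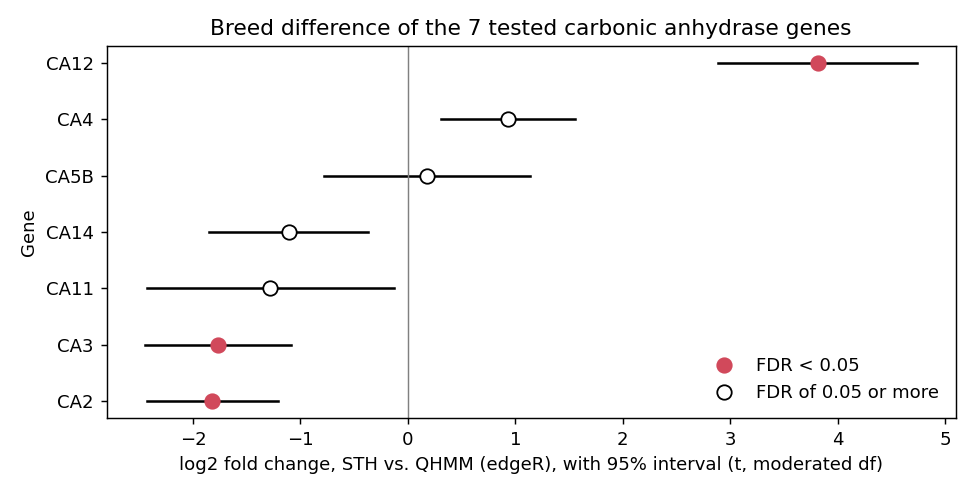
Log2 fold change of STH vs. QHMM for the 7 tested members (points, edgeR) with 95% intervals (lines, t distribution with moderated degrees of freedom). Filled points, CA2 and CA3 on the left and CA12 on the right, have an FDR below 0.05; the intervals of CA4, CA11 and CA14 leave out 0 but their FDRs do not pass.

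The summed level of the membrane members CA4, CA9, CA12 and CA14 overlapped between the breeds, while their make-up did not. The sum was 67.7, 105 and 68.0 RPKM in QHMM, compared with 81.2, 55.5 and 66.9 in STH. CA14 gave 78.4%, 87.9% and 88.1% of it in QHMM and 56.5%, 43.5% and 52.5% in STH. The share of CA4 was 14.3% ± 5.16 in QHMM (SD, n = 3) and 34.3% ± 1.56 in STH (n = 3), and that of CA12 was 0.790% ± 0.375 and 14.9% ± 5.49. These shares are made of the same values as the fold changes of the genes and were not tested. The cytosolic sum of CA2, CA3, CA8 and CA13 was 2152 to 2857 RPKM in QHMM and 655 to 963 in STH, nearly all of it CA3.

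**Figure D3:**
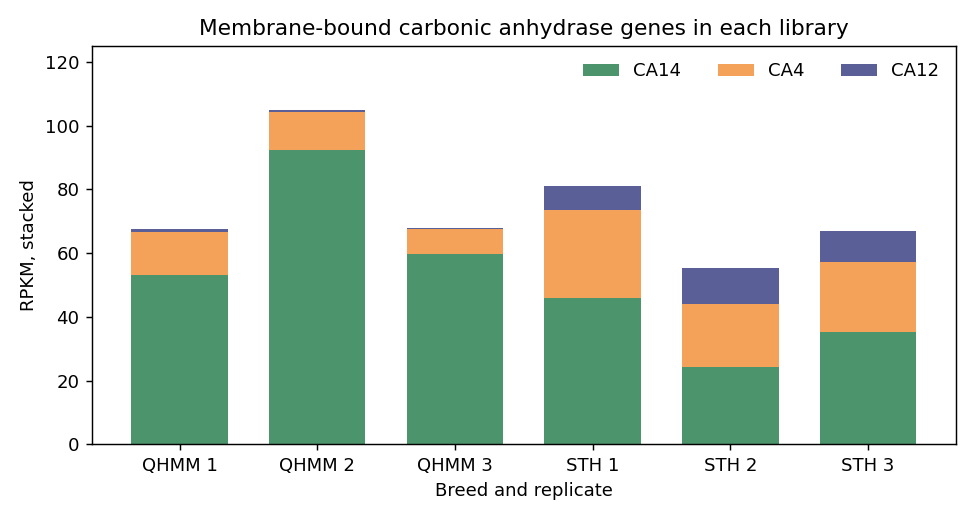
RPKM of CA14, CA4 and CA12 stacked for each library; CA9, at 0.103 RPKM or less, is left out. The bars reach 67.7 to 105 in QHMM and 55.5 to 81.2 in STH, and CA14 takes between 78.4% and 88.1% in QHMM but between 43.5% and 56.5% in STH.

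The remaining members were scarce. CA11, a related protein without catalytic activity, had 28.4, 15.1 and 48.4 normalized counts in QHMM and 10.7, 8.48 and 18.9 in STH. The breeds overlapped, since STH replicate 3 exceeded QHMM replicate 2, and the log2 fold change of -1.28 (SE 0.52, FDR = 0.208, edgeR) became -0.79 without QHMM replicate 3. CA5B, the mitochondrial form, had 33.7, 23.2 and 17.1 in QHMM and 40.9, 23.3 and 18.9 in STH. These 6 values were interleaved, and the log2 fold change of 0.17 (SE 0.43, 95% interval -0.78 to 1.13, FDR = 0.871, edgeR) changed its sign to -0.03 without QHMM replicate 3 and to -0.24 without STH replicate 1.

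CA8, CA9 and CA13 were too low to be tested. CA8, the other catalytically inactive member, had 2, 3 and 2 reads in QHMM and 3, 3 and 0 in STH. CA13 had 0, 0 and 4 reads in QHMM and 0, 1 and 0 in STH, so all but 1 of its reads came from QHMM replicate 3. CA9, a transmembrane form best known from hypoxic tissue, had 2, 0 and 1 reads in QHMM and 0 in each STH library. A count of 0 allows up to 3 reads, or 0.221 to 0.273 CPM (counts scaled to the library total) in the STH libraries, so no difference in CA9 was detectable at this depth. Of the other family genes in the table, CA7 had 0 reads, CA6 had 1, CA1 had 2 and CA5A had 6, the latter all in QHMM replicate 2. PTPRG, a receptor phosphatase that carries a carbonic anhydrase-like domain, was the only further relative that was tested, and its log2 fold change was 0.41 (SE 0.25, FDR = 0.401, edgeR). PTPRZ1, of the same kind, had 35 reads in all.

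Partners of the enzymes were taken as 4 lists from general knowledge. Among bicarbonate transporters, 4 of the 12 in the table were tested and 1 was down-regulated. This was SLC4A4, a sodium bicarbonate cotransporter, with 92.1, 59.2 and 61.5 normalized counts in QHMM and 25.4, 12.7 and 10 in STH. The log2 fold change was -2.11 (SE 0.41, FDR = 0.0236, edgeR). Every QHMM library was above every STH library, but the call was lost when any of QHMM replicates 1 and 3 and STH replicates 2 and 3 was left out. SLC26A11, the most abundant of this list, had a log2 fold change of 0.11 (FDR = 0.863), and the median of the 4 was -0.02, beside 0.02 over all tested genes.

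None of the 13 tested proton and lactate exporters and gas channels was called by edgeR with the settings used throughout. Of these, 3 had an unadjusted p below 0.05 (edgeR), as had 2395 of all 12506 tested genes. DESeq2 called 1, as did edgeR with no filter, with at least 10 counts in every library, with a replicate block (with or without a gene-length offset), and without STH replicate 1 or STH replicate 3. In 11 of the 13 the estimate was lower in STH, and the median log2 fold change of the list was -0.40. For BSG, the chaperone of lactate transporters and the most abundant of the list, the log2 fold change was -0.71 (SE 0.27, FDR = 0.180, edgeR). SLC9A2, a sodium/proton exchanger, had -1.19 (SE 0.30, FDR = 0.0563), and was named after its values were seen.

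Of the listed enzymes that fix bicarbonate or carbon dioxide, 9 of 10 were tested. Of these, 1 was up-regulated and 1 down-regulated, and the median log2 fold change of the list was -0.28. ACACB, acetyl-CoA carboxylase beta, which makes the malonyl-CoA that holds back fatty acid entry into mitochondria, had 1581, 1718 and 1366 normalized counts in QHMM and 3154, 7247 and 5027 in STH. This was a log2 fold change of 1.73 (SE 0.31, FDR = 0.0186, edgeR). PC, pyruvate carboxylase, went the other way, with 600, 522 and 267 in QHMM and 175, 84.8 and 160.1 in STH. For both genes the breeds did not overlap. The list had 0 calls without QHMM replicate 1 or QHMM replicate 2 and 1 call when QHMM replicate 3 or either of STH replicates 2 and 3 was left out.

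The last partner list held genes of the imidazole dipeptides, which buffer protons inside fibres. Of 6 tested, 2 were down-regulated and 0 up-regulated, 3 had positive and 3 negative estimates, and the median log2 fold change was -0.70. SLC15A4, a peptide and histidine transporter named after its values were seen, had 0.99 (FDR = 0.112). CARNS1, which joins beta-alanine and histidine into carnosine, had 345, 337 and 255 normalized counts in QHMM and 64.7, 19.1 and 71.1 in STH, a log2 fold change of -2.59 (SE 0.41, FDR = 0.0123, edgeR). GADL1, a decarboxylase that can form beta-alanine, had 2183, 1777 and 1856 in QHMM and 402, 298 and 378 in STH, a difference of -2.43 on the log2 scale (SE 0.23, FDR = 0.00208, edgeR). At both genes every QHMM library lay above every STH library, and 2 or 3 genes of the list were called when any 1 library was left out.

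**Figure D4:**
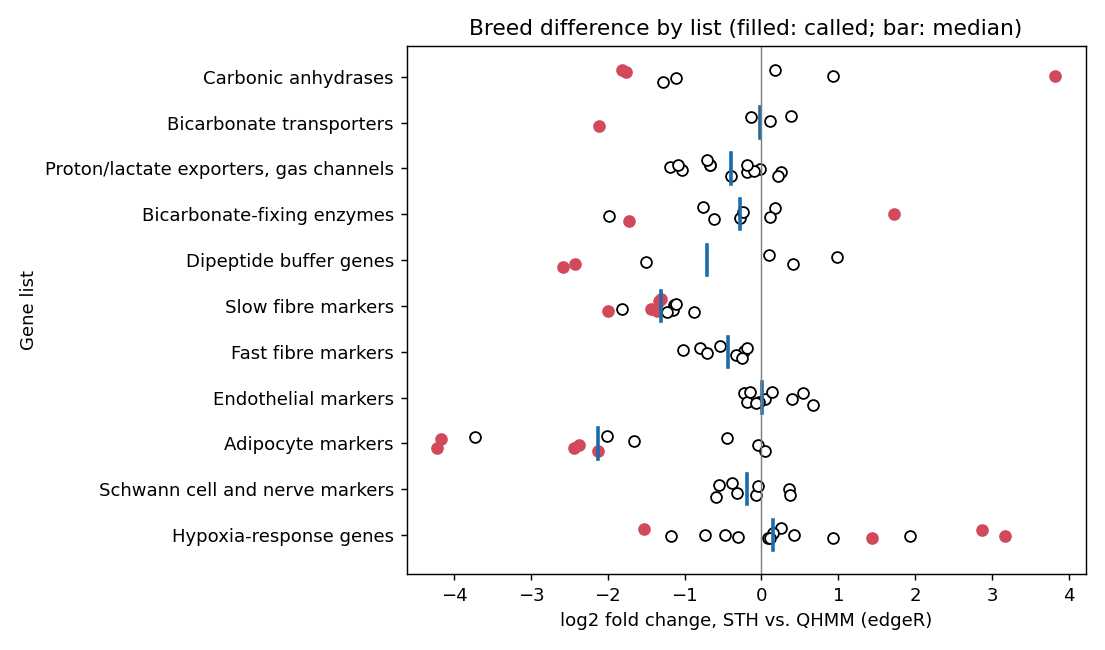
Log2 fold changes of STH vs. QHMM (edgeR) for the tested genes of each list, with 1 point per gene, filled where called, and a blue bar at the median of each comparison list. The carbonic anhydrases spread from -1.82 to 3.81, while the slow-fibre markers all lie below 0 and the endothelial markers lie on both sides of it.

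Markers of cells known to carry these enzymes moved with the breeds to different extents. All 11 tested slow-fibre markers had negative estimates, 5 were down-regulated, and the median log2 fold change was -1.31. The called ones were the slow myosin heavy chain OMYHCS with -1.34 (FDR = 0.0251), its relative MYH7B with -1.99 (FDR = 0.0409), the light chain MYL2 with -1.44 (FDR = 0.0351), the troponin TNNT1 with -1.37 (FDR = 0.0240) and the calcium store protein CASQ2 with -1.31 (FDR = 0.0409, all edgeR). With 1 library left out 0 to 3 were called, 0 without QHMM replicate 1 or QHMM replicate 3. DESeq2 called 10 of the list, and limma-trend on log2(RPKM + 1) of every gene above 0 called 0. The summed RPKM of the list was 16630 to 24318 in QHMM and 7339 to 11472 in STH. The log2 ratio of CA3 to OMYHCS counts was -2.53, -1.69 and -2.01 in QHMM and -3.02, -2.24 and -2.31 in STH, and the breeds overlapped in it, as they did in the ratio of CA3 to TNNT1. The part of slow fibres in the CA3 difference was not tested. Of 8 tested fast-fibre markers, all with negative estimates, 0 were called by edgeR with the settings used throughout. In edgeR 2 of them had an unadjusted p below 0.05, beside 2395 of all 12506 tested genes. DESeq2 called 1, as did edgeR with no filter, without QHMM replicate 2, without STH replicate 3, and without both of these libraries. MYLPF, the most abundant, had -0.34 (FDR = 0.605). The listed fast myosins MYH1 and MYH2 were not found under these symbols. The myosin heavy chain genes OMYHC2X and OMYHC2A, outside the list, were named after their values were seen. They had -0.215 (FDR = 0.730) and -0.817 (FDR = 0.200, edgeR).

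Several fat cell markers were also down-regulated in STH. Of 11 tested, 5 were down-regulated and 10 had negative estimates, with a median log2 fold change of -2.13, and no marker of the list was at 0 in all libraries. ADIPOQ, the gene of the fat cell hormone adiponectin, had 3172, 1093 and 1659 normalized counts in QHMM and 458, 508 and 390.2 in STH. QHMM replicate 1 had the most ADIPOQ. The QHMM libraries had 44569, 70849 and 46249 normalized counts of CA3 and 1042, 1046 and 705 of CA2. By RPKM, CA2 had 49.0, 41.5 and 33.8 there. The other called markers were the lipid droplet genes PLIN1 with -2.37 (FDR = 0.0186) and CIDEC with -2.44 (FDR = 0.0438), the lipogenic regulator THRSP with -4.16 (FDR = 0.0397, edgeR), and LEP, the gene of leptin, which had normalized counts of 74.4, 12.8 and 24.2 in QHMM and 4.09, 0 and 1.11 in STH. The most abundant marker of the list, FABP4, had -0.04 (FDR = 0.980). The summed RPKM of the list was 136 to 530.5 in QHMM and 106 to 214 in STH, and overlapped. Without QHMM replicate 1, the highest library for each of the 5 called markers, 2 of the list were called. In that fit the log2 fold change was -1.91 for CA3 and -1.75 for CA2 (FDR = 0.0363 for both, edgeR). Without QHMM replicate 3 and STH replicate 2 the list had 2 calls and 1 call, and without STH replicate 1 or STH replicate 3 it had 3. With 1093 and 1659 normalized counts of ADIPOQ, QHMM replicates 2 and 3 were still above every STH library. The fit without QHMM replicate 1 therefore cannot separate CA2 and CA3 from fat cells. The part of fat cells in the differences of CA2 and CA3 was not tested.

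Capillary markers lay on both sides of no difference. Of 10 tested endothelial genes 0 were called by edgeR or by DESeq2, and 5 had positive and 5 negative estimates. Their median log2 fold change was 0.01. In edgeR 1 of them had an unadjusted p below 0.05, beside 2395 of all 12506 tested genes. For PECAM1, the most abundant, the log2 fold change was 0.04 (SE 0.21, FDR = 0.945, edgeR). EMCN, ERG and VWF, named after their values were seen, were higher in all STH libraries than in any QHMM library. Their log2 fold changes were 0.67 (FDR = 0.203), 0.54 (FDR = 0.344) and 0.40 (FDR = 0.346, all edgeR). They were the only ones of the 10 without overlap, which 24.7% of all tested genes also lacked. The log2 ratio of CA4 to PECAM1 counts was -3.76, -3.68 and -4.70 in QHMM and -3.21, -3.40 and -2.70 in STH, without overlap. Such a ratio depends on the marker chosen, and none was taken to EMCN, ERG or VWF, which were higher in STH. The part of capillaries in the CA4 values was not tested. Red blood cell markers were at or near 0, with a summed RPKM of at most 0.875 in QHMM and 3.62 in STH. Of the 8 such genes that the files hold, 5 had 0 reads, among them SLC4A1, the anion exchanger of red cells, named after its values were seen, and AHSP, the highest of the list, averaged 0.190 RPKM in QHMM and 1.57 in STH. The globin genes HBB, HBA1 and HBA2 were listed but not found under these symbols in the count table, so the summed RPKM leaves them out. Of 8 tested Schwann cell and nerve markers, led by PMP22 with -0.39 (FDR = 0.647), 0 were called by edgeR or DESeq2 and 0 had an unadjusted p below 0.05.

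CA12 and CA9 are known to respond to low oxygen, and a list of other such genes was mixed. Of 15 tested, 3 were up-regulated and 1 down-regulated, 10 had positive and 5 negative estimates, and the median log2 fold change was 0.14. The up-regulated genes were BNIP3, a mitophagy receptor, with 1.44 (FDR = 0.0248), and the bifunctional enzymes PFKFB3 with 3.17 (FDR = 0.0133) and PFKFB4 with 2.87 (FDR = 0.0128), which set the level of a glycolysis activator. PGK1, a glycolytic enzyme, was down-regulated with -1.52 (FDR = 0.0302, all edgeR). LDHA, the most abundant, had -0.73 (FDR = 0.243). The list had 2 calls without QHMM replicate 1, 2 or 3. The part of low oxygen in the CA12 difference was not tested.

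The genes nearest to each called member in pattern were found by the root mean square difference of centred log2 counts over the 6 libraries, among 11258 genes with a mean of at least 20 normalized counts. For CA2 they were PGK1 (0.21), ASS1 (0.23), the argininosuccinate synthase, and NFASC (0.27), a cell adhesion gene. For CA3 they were PGK1 (0.21), GPD1 (0.29), the cytosolic glycerol-3-phosphate dehydrogenase, and CA2 (0.29). For CA12 the nearest genes were farther away, with HMOX1 (0.42), the heme-degrading enzyme, SLC25A33 (0.43), a mitochondrial nucleotide carrier, and FOXO1 (0.46), a transcription factor. HMOX1 had 192, 115 and 73.5 normalized counts in QHMM and 757, 1572 and 1134 in STH, with STH replicate 2 the highest. CA12 was highest in STH replicate 3 by normalized counts (151, with 137 in replicate 2). By RPKM it was highest in STH replicate 2 (11.4, with 9.73 in replicate 3). The likeness rests on 6 libraries in 2 breeds, and any gene that differs between the breeds by a like amount comes near.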

How the data were processed

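The authors filtered Ion Proton reads, mapped them to the sheep genome (Oar_v3.1) and deposited the unique mapped reads of each gene as counts, without normalization, beside RPKM values that scale those counts by gene length and library total. The aligner, counting program and annotation release are not given in the sources used here. Of the RPKM table, 25 genes could not be joined by name. Counts were tested in R 4.3.3 with edgeR 4.0.16 (TMM, filterByExpr, quasi-likelihood F test, breed as the only term, Benjamini-Hochberg FDR over all tested genes) in place of the EBSeq program of the study, which was not installed, with the study's thresholds. Alternatives used DESeq2 1.42.0, limma 3.58.1 on log2(RPKM + 1) and log2(RPKM + 0.1), other normalization, filters and dispersions, a gene-length offset, a replicate block, and each library left out. SEs come from the fold change and F statistic. Error values are SDs over the animals of a breed. The edgeR script was tested on simulated data, where it called 49.7% of 197 changed genes and 88.2% of those changed 4-fold. Of its calls there, 2.97% were false. A gene that was not called can therefore still differ. Plots were drawn with matplotlib 3.10.9. The members and lists were chosen with earlier results of these data known. The text names the 10 members, other family genes in the table, the called and the most abundant genes of each list, and the 3 genes nearest in pattern to each called member; other names are marked. With 3 animals against 3, an exact permutation p cannot go below 0.1, so none is given. No sequence is shown, because none was among the sources used here.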

Additional observations from a re-analysis of the deposited data

How the results depend on the processing

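CA2 and CA3 were called in the 12 alternatives with all 6 libraries and the 6 fits that left out 1 library, and CA12 in all of these that tested it, which leaves out the filter of at least 10 counts in every library. The count of called members was 3, against 5 with DESeq2, 3 to 3 with 1 library left out, 3 with the replicate block, and 0 without QHMM replicate 2 and STH replicate 3 together, a fit added after the data were seen that called 11 genes in all. The sign changed only for CA5B, to -0.03 without QHMM replicate 3 and -0.24 without STH replicate 1, and it ranged from -0.24 to 0.45 with 1 library left out. Of the genes in the comparison lists, 19 were called, against 32 with DESeq2, 4 with limma-trend on log2(RPKM + 1) of every gene above 0, 6 to 17 with 1 library left out, and 2 without those 2 libraries. It was 6 without QHMM replicate 1, 7 without QHMM replicate 3 and 9 without STH replicate 2. Over all genes, 432 were called, against 975 with DESeq2, 806 without a filter, 78 with limma-trend on every gene above 0, and 131 to 535 with 1 library left out. The RPKM fits moved the median log2 fold change of all genes by up to 0.11, and the up-regulated share of calls from 47.0% to between 61.3% and 69.2%. The deviations of same-numbered libraries correlated at 0.22, -0.03 and -0.13, so no steady pairing by replicate number was seen. The sample labels do not say whether animals were paired, and the block gave 457 calls. Genes at a few reads, such as CA8, CA9 and CA13, are limited by depth.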
